A study of Homo sapiens with 8 samples.

Results

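Of the 2026 mature microRNAs (miRNAs, small RNAs that silence messenger RNAs by base pairing) counted in sorted HCT116 cells, 10 were taken by name as markers of blood, endothelium and liver. All 10 were present in the table. The red cell markers are hsa-miR-451a, hsa-miR-486-5p and hsa-miR-486-3p, and the leukocyte markers hsa-miR-142-5p, hsa-miR-142-3p, hsa-miR-223-3p and hsa-miR-150-5p. Endothelium is represented by hsa-miR-126-3p and hsa-miR-126-5p and liver by hsa-miR-122-5p. The species prefix is left out below. HCT116 is a human colorectal cancer epithelial line. Every sample came from this line, grown as spheroids in serum-free medium with growth factors after routine culture in serum. The labels name no genetic change. Spheroid cells were stained for CD44v6, a variant of the adhesion receptor CD44 used as a marker of stem-like cells, and sorted live into CD44v6-positive and CD44v6-negative fractions. Each fraction was represented by 2 samples, called positive samples 1 and 2 and negative samples 1 and 2 below. Whether samples 1 and 2 of a fraction came from separate cultures is not in the labels, so each p-value rests on a spread between samples that may be purely technical.

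Red cells, white cells, endothelium and hepatocytes each carry miRNAs that other tissues hold at low levels. miR-451a matures without Dicer, through cutting by AGO2, and builds up with miR-144 during red cell formation. miR-142 is made throughout the blood lineages, miR-223 in myeloid cells and miR-150 in mature lymphocytes, where it restrains MYB. miR-126 sits in the endothelial gene EGFL7 and modulates VEGF signalling through SPRED1 and PIK3R2, and miR-122 dominates the miRNA pool of hepatocytes.

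Mature sequences were matched for 6 of the 10 in RefSeq's miRNA table (GRCh38.p14). They are shown because reads were assigned by sequence, so a reader can see how far apart the markers lie. Capitals mark the seed, bases 2 to 8, which pairs with target messages.
miR-126-5p: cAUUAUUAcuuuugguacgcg
miR-126-3p: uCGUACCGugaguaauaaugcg
miR-142-5p: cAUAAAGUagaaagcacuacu
miR-142-3p: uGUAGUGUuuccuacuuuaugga
miR-223-3p: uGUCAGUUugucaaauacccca
miR-122-5p: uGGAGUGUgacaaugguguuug
No seed was shared between any of these 6, or with another of the 1799 table entries that matched a RefSeq mature sequence. The closest other entry to miR-122-5p was 5 edits away (miR-3591-5p), and those to the other members shown were 7 to 9 edits away.

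Hairpin positions are those of GENCODE 29 on GRCh38. MIR126 (chr9:136670602-136670686, plus) sits within an intron of EGFL7. MIR142 (chr17:58331232-58331318, minus) falls in an exon of the noncoding gene AC004687.1. MIR451A (chr17:28861369-28861440, minus) falls in an exon of the noncoding gene AC024267.1, which also holds MIR144 (chr17:28861533-28861618). MIR122 (chr18:58451074-58451158, plus) belongs to an exon of MIR122HG, and MIR223 (chrX:66018870-66018979, plus) to one of AL034397.3. MIR150 (chr19:49500785-49500868, minus) overlaps no other gene on its strand. miR-486 comes from a hairpin pair in an intron of ANK1, the red cell ankyrin gene, with 1 hairpin on each strand.

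Depth differed between the groups. The negative samples held 7880631 and 4592278 reads and the positive samples 919802 and 154481 reads, a 51-fold span. Levels are given in CPM, reads per 1000000 reads of that sample's table, with exact Clopper-Pearson 95% intervals. These cover counting error only, since amplified reads are not independent molecules. A count of 3 reads, the limit that a count of 0 allows, is 0.381, 0.653, 3.26 and 19.4 CPM in negative samples 1 and 2 and positive samples 1 and 2. Beside the markers, 8 miRNAs of gut epithelium were read (5 of the miR-200 family with miR-192, miR-194 and miR-215). All 8 were detected in every sample, with a summed level of 22440 and 24840 CPM in the negative and 17950 and 17480 CPM in the positive samples. The 10 blood, endothelial and liver markers were detected in every sample too, so detection alone does not check the label of an epithelial gut line. With edgeR 0 of the 8 passed. At an unadjusted p under 0.05, 3 were lower in the positive samples, where 17.5% of all 570 tested miRNAs were. These were miR-141-3p (log2 fold change -2.41), miR-429 (-2.02) and miR-200a-3p (-1.96). The groups overlapped for miR-200b-3p (-0.23) and miR-200c-3p (-0.61). They also overlapped for miR-192-5p (0.80), miR-194-5p (0.74) and miR-215-5p (1.73), whose values were positive. The sum in positive sample 2 includes miR-192-5p at 5664 CPM, against 1039 CPM in positive sample 1.

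Each of the 10 markers had at least 1 read in every sample. Together they took 0.487% and 0.496% of the reads in negative samples 1 and 2, and 0.532% and 0.680% in positive samples 1 and 2. miR-126-5p and miR-486-5p alone held 92.9%, 90.1% and 93.0% of these marker reads in the first 3 of those samples. In positive sample 2 the pair held 74.4%, and the other 8 markers together stood at 1741 CPM (1540 to 1962), against 348 to 489 CPM in the other samples. That library is the shallowest, and 2 of the 10 markers rest on 1 read each there.

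**Figure D1:**
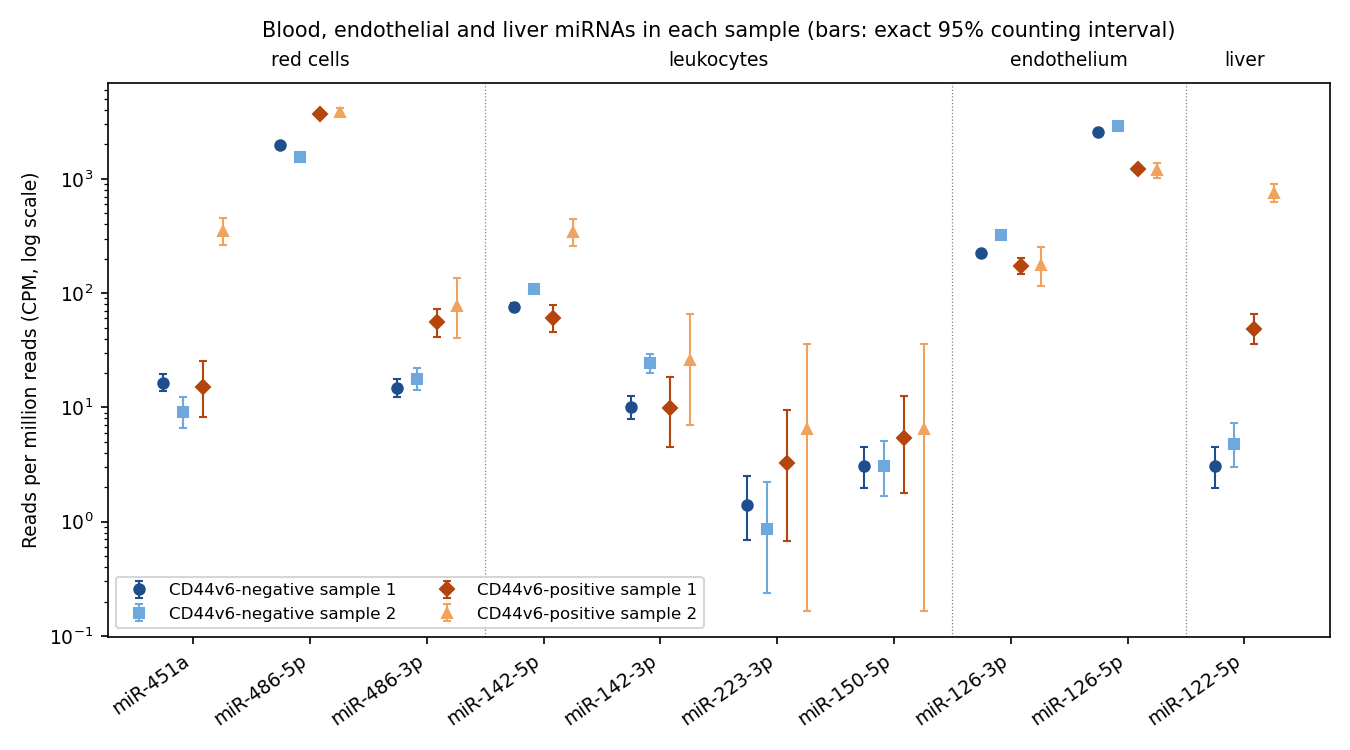
Level of each marker miRNA (x axis, grouped by the cell type it marks) in CPM on a log axis, 1 point per sample, with bars for the exact 95% counting interval. miR-451a, miR-142-5p and miR-122-5p stand far higher in positive sample 2 than in positive sample 1, and the miR-126 arms and miR-486-5p do not.

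In negative sample 1 the endothelial miR-126-5p led at 2548 CPM (2513 to 2584), the 51st of 1256 detected miRNAs. miR-486-5p followed at 1973 CPM and miR-126-3p at 223 CPM. miR-142-5p stood at 75.8 CPM. Below it the intervals of miR-451a (16.5 CPM) and miR-486-3p (14.9 CPM) overlapped, as did those of miR-486-3p and miR-142-3p (10.0 CPM). At the bottom, miR-122-5p and miR-150-5p had 24 reads each (3.05 CPM) and miR-223-3p 11 reads (1.40 CPM), and the intervals of neighbours overlapped.

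Negative sample 2 kept the same first 4 places, with miR-126-5p at 2923 CPM, miR-486-5p at 1548 CPM, miR-126-3p at 320.1 CPM and miR-142-5p at 109 CPM. The order of the middle markers differed. miR-142-3p stood at 24.4 CPM, with an interval overlapping that of miR-486-3p (17.9 CPM). miR-451a was at 9.15 CPM and miR-122-5p at 4.79 CPM, and their intervals overlapped. miR-150-5p had 14 reads and miR-223-3p 4.

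In positive sample 1 the first 2 places were exchanged. miR-486-5p led at 3716 CPM (3593 to 3842), the 45th of 863 detected miRNAs, and miR-126-5p followed at 1231 CPM (1160 to 1304). miR-126-3p was next at 174 CPM. miR-142-5p (60.9 CPM), miR-486-3p (55.5 CPM) and miR-122-5p (48.9 CPM) came next, each overlapping its neighbour. miR-451a had 14 reads, miR-142-3p 9, miR-150-5p 5 and miR-223-3p 3.

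Positive sample 2 had miR-486-5p at 3865 CPM (3561 to 4187) and miR-126-5p at 1191 CPM (1025 to 1376), close to their levels in positive sample 1. Next came miR-122-5p, at 757 CPM (626 to 908) from 117 reads, the 84th of 627 detected miRNAs. miR-451a stood at 349.6 CPM (263 to 456) from 54 reads and miR-142-5p at 343 CPM (257 to 449) from 53 reads, and these 2 overlapped. miR-126-3p (174.8 CPM) and miR-486-3p (77.7 CPM) rested on 27 and 12 reads. miR-142-3p had 4 reads, and miR-150-5p and miR-223-3p 1 read each.

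**Figure D2:**
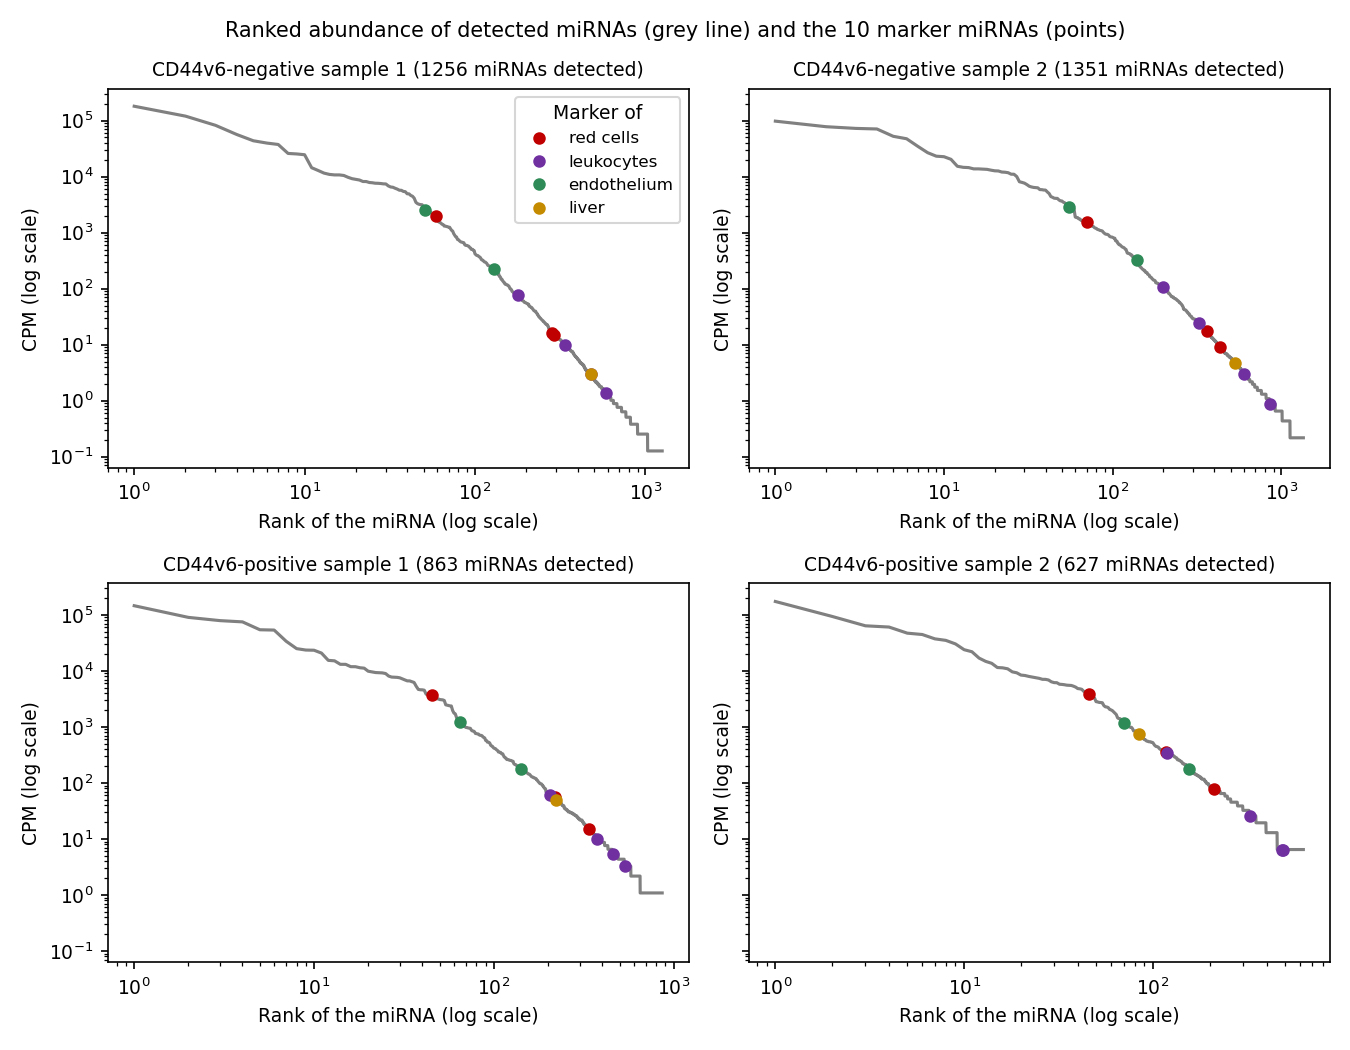
Detected miRNAs of each sample ranked by CPM (grey line, both axes log), with the 10 markers as points coloured by the cell type they mark. The highest marker is 51st and 55th in negative samples 1 and 2 and 45th and 46th in positive samples 1 and 2, and the liver marker moves from 477th and 532nd to 222nd and 84th.

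Positive and negative fractions were then compared to ask which markers go with CD44v6. The hepatocyte marker miR-122-5p was at 3.05 and 4.79 CPM in negative samples 1 and 2 and at 48.9 and 757 CPM in positive samples 1 and 2. Both positive samples lay above both negative samples, and they differed from each other 15.5-fold. The group levels were 403 ± 501 against 3.92 ± 1.23 CPM (SD, n = 2). Its log2 fold change, positive over negative, was 6.22 ± 1.32 (SE, edgeR's quasi-likelihood test), with an adjusted p of 0.0787. It was 21st of 570 tested miRNAs by p. The value was 3.71 without positive sample 2 and 7.02 without positive sample 1, the lowest and highest with 1 sample left out. The other arm, miR-122-3p, had 0 reads in all 4 samples, so that its level could be as high as 0.381 CPM in negative sample 1 and 19.4 CPM in positive sample 2.

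Over all 570 tested miRNAs, 0% passed edgeR's adjusted p under 0.05, so 0 of the 9 tested markers did. Unless another scaling or a left-out sample is named, the edgeR values here come from that fit and did not pass. With total count scaling, edgeR called miR-122-5p (adjusted p = 1.98e-07) and miR-451a (adjusted p = 0.0088), among 48 called of the 570 tested miRNAs. At an unadjusted p under 0.05 there were 3 markers, against 30.5% of all tested miRNAs. miR-122-5p and miR-486-3p were higher (13% of all tested) and miR-126-5p lower (17.5%). DESeq2 called miR-122-5p and miR-451a, where it called 13.2% of all tested miRNAs, and limma-voom called none of the 9, with 0.702% called in all. Groups did not overlap on the TMM-scaled level for 6 of the 9 tested markers, 4 higher and 2 lower, against 59.5% of tested miRNAs, 24.9% higher and 34.6% lower. That share is near the background. The median log2 fold change of the 9 was 0.67 and that of all tested miRNAs -0.31. miR-223-3p did not pass the filter on low counts. miR-150-5p passed it through the positive samples alone, so it had to lie on the higher side, and miR-122-5p needed at least 1 positive sample to pass.

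The red cell markers had positive log2 fold changes, of different kinds. miR-486-5p, an erythroid and muscle miRNA, was at 1973 and 1548 CPM in the negative and 3716 and 3865 CPM in the positive samples. The groups did not overlap, at 1760 ± 301 against 3790 ± 105 CPM (SD, n = 2). On the TMM-scaled level used for the test they were nearer, at 2975 and 1289 CPM against 3688 and 3111 CPM, so that negative sample 1 almost met positive sample 2. The log2 fold change was 0.67 ± 0.54 (edgeR adjusted p = 0.445). It depended on scaling and on single samples, at 1.11 with total count scaling, 1.47 without negative sample 1 and 0.37 without negative sample 2. miR-486-3p, its partner arm, was at 14.9 and 17.9 CPM in the negative and 55.5 and 77.7 CPM in the positive samples, again without overlap. The log2 fold change was 1.65 ± 0.61 (edgeR adjusted p = 0.138), and it ran from 1.55 to 2.04 with 1 sample left out.

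miR-451a differed widely within the positive group. It was at 16.5 and 9.15 CPM in the negative samples, at 15.2 CPM in positive sample 1 and at 349.6 CPM in positive sample 2. Positive sample 1 therefore lay between the negative samples, and the groups overlapped. Its log2 fold change of 3.12 ± 1.35 (edgeR adjusted p = 0.179) was 0.08 without positive sample 2 and 4.01 without positive sample 1. Without negative sample 1 it was 4.29, and limma-voom with every sample gave 1.72 (adjusted p = 0.391). miR-144-3p, from the same transcript, had 15, 12, 2 and 7 reads in negative samples 1 and 2 and positive samples 1 and 2, or 1.90, 2.61, 2.17 and 45.3 CPM. miR-144-5p had 1 to 3 reads in each sample, and miR-451b and both arms of miR-4732, from the same locus, had 0 reads in all.

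The endothelial pair had lower values in the positive fraction, and neither arm passed. miR-141-3p, miR-429 and miR-200a-3p of the miR-200 family were lower there too, while miR-200b-3p and miR-200c-3p overlapped between the groups. The other 3 of the 8 gut epithelial miRNAs had positive log2 fold changes. The part of these miRNAs in the result was not tested. miR-126-5p was at 2548 and 2923 CPM in the negative and 1231 and 1191 CPM in the positive samples, without overlap, or 2735 ± 265 against 1211 ± 28.0 CPM (SD, n = 2). The log2 fold change was -1.52 ± 0.48 (edgeR adjusted p = 0.117) and ran from -1.83 to -1.09 with 1 sample left out. miR-126-3p, the arm most studied in vessels, was at 223 and 320.1 CPM against 174 and 174.8 CPM. Its groups did not overlap either, at a log2 fold change of -0.94 ± 0.51 and an adjusted p of 0.257 (edgeR). Without positive sample 2 that was -0.59 and without positive sample 1 it was -1.22.

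Among the leukocyte markers, neither arm of miR-142 separated the fractions. miR-142-5p was at 75.8 and 109 CPM in the negative and 60.9 and 343 CPM in the positive samples, so that the positive samples lay on either side of the negative ones. Its log2 fold change was 0.68 ± 0.79 (edgeR adjusted p = 0.595), -0.55 without positive sample 2 and 1.31 without positive sample 1, and limma-voom gave 0.15. miR-142-3p was at 10.0 and 24.4 CPM against 9.79 and 25.9 CPM, which overlapped, with an edgeR log2 fold change of -0.37 ± 0.74 and an adjusted p of 0.755. The lymphocyte marker miR-150-5p was at 3.05 CPM in each negative sample and at 5.44 and 6.47 CPM in the positive samples (log2 fold change 0.58 ± 0.86, edgeR adjusted p = 0.671). The myeloid marker miR-223-3p was at 1.40 and 0.871 CPM against 3.26 and 6.47 CPM, from 11, 4, 3 and 1 reads. At these counts a difference in miR-150-5p or miR-223-3p was not detectable, since the interval of 1 read in positive sample 2 ran from 0.164 to 36.1 CPM. Their other arms, miR-150-3p and miR-223-5p, had 0 or 1 read in each sample.

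**Figure D3:**
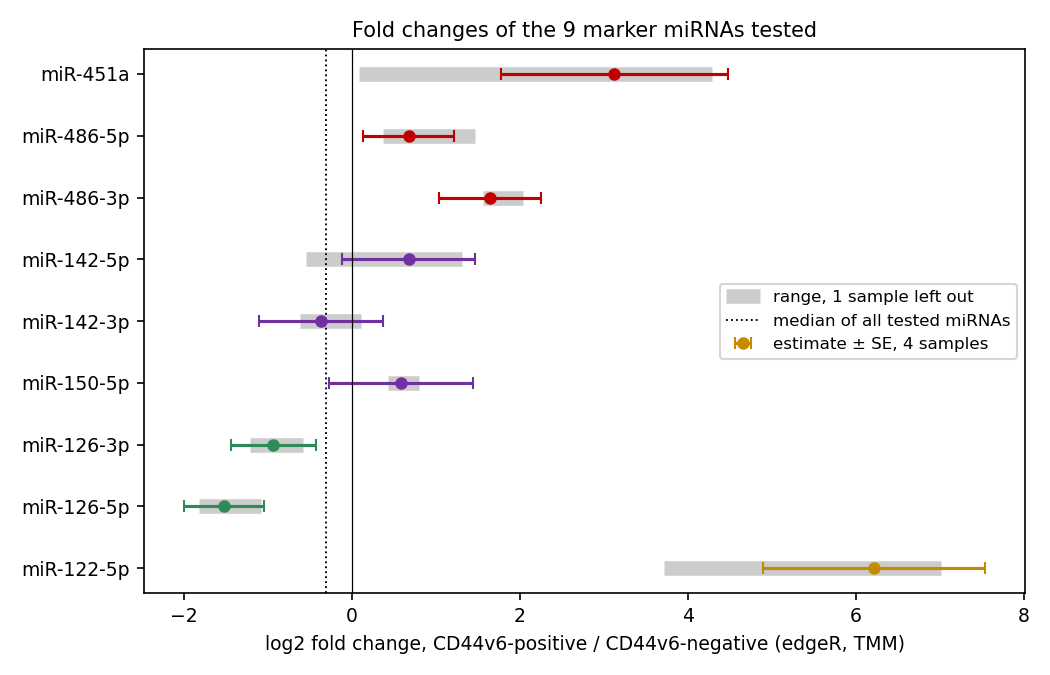
Log2 fold change, positive over negative, of the 9 tested markers (points, edgeR with TMM scaling, bars 1 SE), with the range when 1 sample is left out in grey and the median of all tested miRNAs (-0.31) dotted. miR-122-5p stays above 3.71, the range of miR-451a reaches down to 0.08, and those of miR-142-5p and miR-142-3p cross 0.

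Scaling moved the median of all miRNAs. The median log2 fold change of all tested miRNAs was -0.31 with TMM, 0.04 with upper quartile and 0.01 with total count scaling. No tested marker changed sign between these. Relative to that median, miR-122-5p was at 6.53, 6.46 and 6.65 and miR-126-5p at -1.22, -1.23 and -1.18, in the same order. miR-486-5p was at 0.98, 0.97 and 1.101, and miR-451a at 3.43, 3.36 and 3.77.

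The positive samples stood far apart in 3 markers and close together in others. Positive sample 2 over positive sample 1, in CPM, was 23.0 for miR-451a, 15.5 for miR-122-5p and 5.64 for miR-142-5p. It was 1.40 for miR-486-3p, 1.04 for miR-486-5p, 1.00 for miR-126-3p and 0.968 for miR-126-5p. Of 235 tested miRNAs with at least 10 reads in both positive samples, 21 (8.94%) had a ratio of 5 or more, and the median was 1.18. These places were read after the values were seen: miR-451a had the highest ratio of the 235, miR-122-5p the 4th and miR-142-5p the 18th. Between the negative samples none of these 3 reached that size, with ratios of sample 2 to sample 1 of 0.554 for miR-451a, 1.57 for miR-122-5p and 1.44 for miR-142-5p. Of 515 tested miRNAs with at least 10 reads in both negative samples, 33 (6.41%) had a ratio of 5 or more, and the median was 1.85. The 9 markers among the 515 included 0 of those 33, which at that share is not telling.

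**Figure D4:**
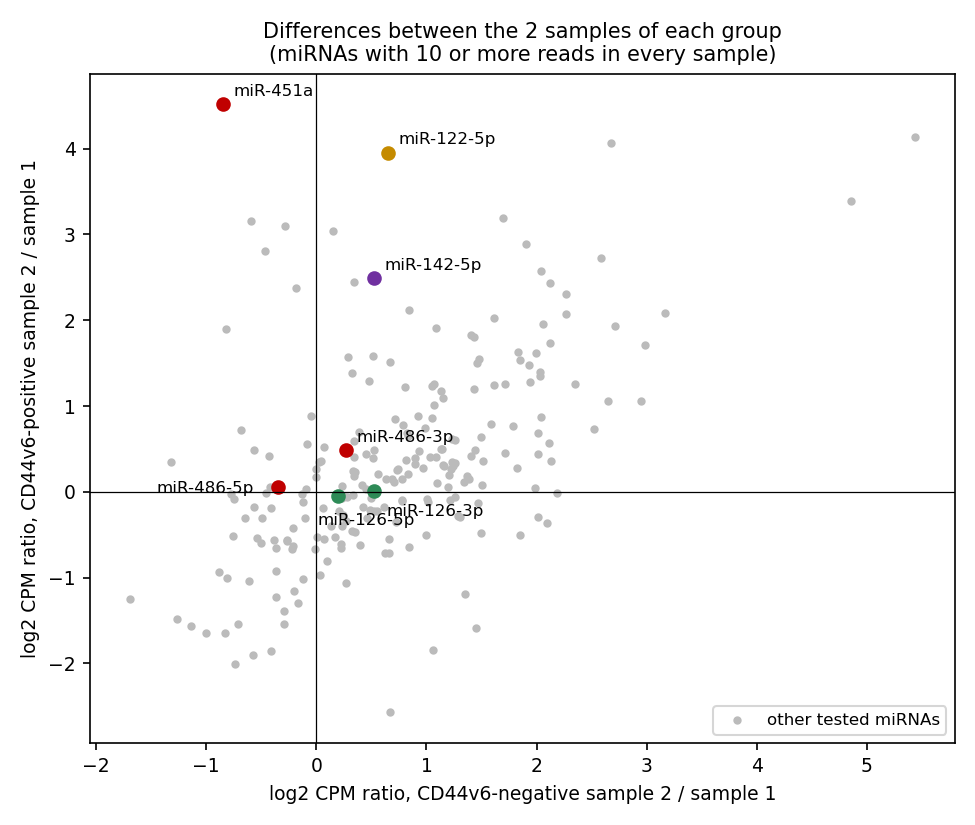
Log2 ratio of sample 2 to sample 1 in the positive group (y axis) against that in the negative group (x axis), from CPM, for the 231 tested miRNAs with at least 10 reads in every sample. The 7 markers among them are named. miR-451a, miR-122-5p and miR-142-5p lie high on the y axis, and the arms of miR-486 and miR-126 lie near 0.

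Some markers of other cell types were also higher in positive sample 2 than in positive sample 1, and others were not. Their part in the result was not tested. Of 6 miRNAs of stroma and muscle, summed levels were 845 and 1039 CPM in the negative samples, 863 CPM in positive sample 1 and 6299 CPM in positive sample 2. Most of that was miR-143-3p, a smooth muscle and fibroblast miRNA, at 719 and 798.5 CPM against 751 and 6176 CPM. miR-145-5p, from the same cluster, was lower in that sample at 71.2 CPM, against 119 and 237 CPM in the negative samples and 101.1 CPM in positive sample 1. In positive sample 2, 4 of the 6 were detected, and the muscle-defining miR-1-3p and miR-133a-3p had 0 reads, as in negative sample 2. In negative sample 1 and positive sample 1, miR-1-3p had 4 and 1 reads and miR-133a-3p 7 and 5, at 5.44 CPM or less. A count of 0 in positive sample 2 allows up to 19.4 CPM, so it does not show a lower level there. Among the gut epithelial miRNAs, positive sample 2 over positive sample 1 was 5.45 for miR-192-5p, 5.20 for miR-215-5p and 2.98 for miR-194-5p. In the miR-200 family it was 1.15 for miR-429, 0.928 for miR-200b-3p, 0.745 for miR-141-3p, 0.692 for miR-200a-3p and 0.381 for miR-200c-3p. Of 8 further blood miRNAs, 5 were detected in each sample and 3 were tested. With edgeR, 0 of those 3 passed. miR-342-3p, found in lymphocytes, stayed at 224 to 245 CPM in all 4 samples. miR-146a-5p, raised in immune activation, was at 6.09 and 6.32 CPM against 7.61 and 32.4 CPM, the last from 5 reads. miR-155-5p, a product of activated lymphocytes and macrophages, had 4 reads in every sample. At their unequal depths these gave 0.508 and 0.871 CPM against 4.35 and 25.9 CPM, and 3.66 ± 1.08 on the log2 scale in edgeR, with an adjusted p of 0.117. miR-155-5p passed the filter on low counts through the positive samples alone, so it had to lie on the higher side.

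Arm use gave a readout within each hairpin that does not depend on library scaling. The 5' arm took 92.0% (91.6 to 92.3) and 90.1% (89.6 to 90.6) of miR-126 reads in the negative samples and 87.6% (85.7 to 89.4) and 87.2% (81.9 to 91.4) in the positive samples. The groups did not overlap, although the interval of positive sample 2 covered that of negative sample 2. For miR-486 the 5' share was 99.3% and 98.9% against 98.5% and 98.0%, also without overlap. The interval of negative sample 2 (98.6 to 99.1) overlapped those of both positive samples (98.1 to 98.9 and 96.6 to 99.0). For miR-142 it was 88.3% and 81.7% against 86.2% and 93.0%, which overlapped. In miR-126 and miR-486 the 5' share fell as the samples became shallower, and the part of depth was not tested. How many other hairpins lay apart in this way was not counted. With 2 samples against 2 the smallest p of a two-sided exact permutation test is 0.333, so that test cannot pass here, and no other test of arm share was run.

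**Figure D5:**
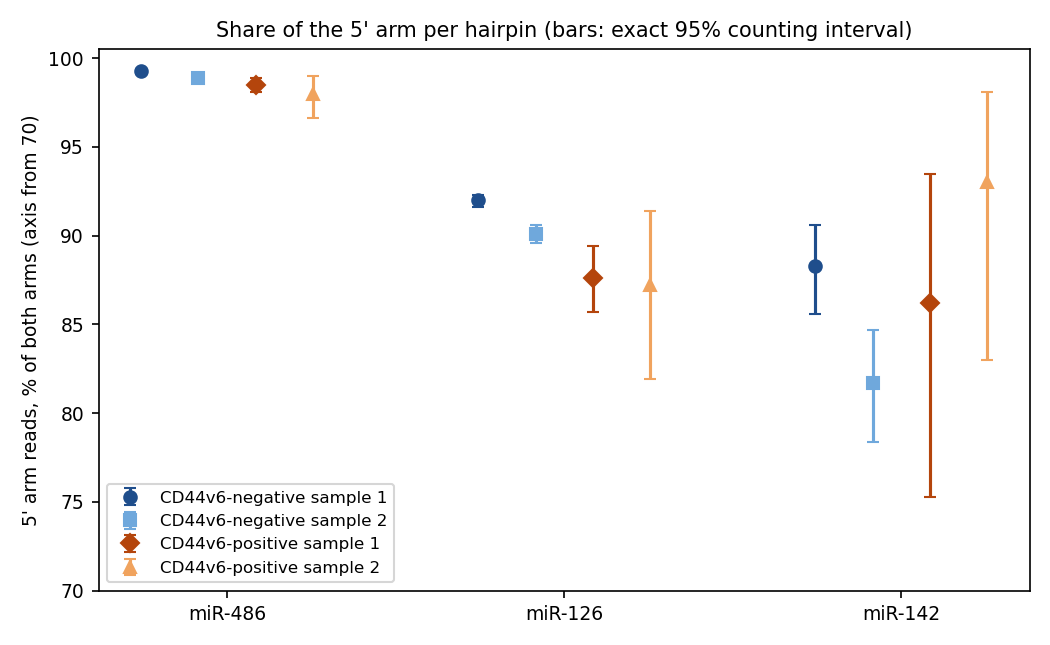
Reads of the 5' arm as a percentage of both arms (y axis, from 70) for miR-486, miR-126 and miR-142, 1 point per sample with the exact 95% counting interval. The positive samples lie below the negative samples for miR-486 and miR-126, and the groups overlap for miR-142.

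By profile over the 4 samples, each tested marker was set beside the other tested miRNA nearest to it, by Euclidean distance of centred log2 CPM. The nearest to miR-122-5p was miR-125b-2-3p, at a distance of 0.638, and to miR-451a it was miR-199a-5p, at 1.02. Both rest on few reads, given here for negative samples 1 and 2 and positive samples 1 and 2. miR-125b-2-3p had 4, 4, 15 and 22 reads, and miR-199a-5p 37, 11, 3 and 7. miR-125b-2-3p passed the filter on low counts through the positive samples alone. miR-142-5p lay nearest to the gut miR-192-5p (0.176), miR-486-3p to miR-375 (0.148) and miR-486-5p to let-7b-5p (0.285). miR-126-5p lay nearest to the epithelial miR-203a-3p (0.245), miR-126-3p to miR-23b-3p (0.207), miR-142-3p to miR-16-2-3p (0.167) and miR-150-5p to miR-146b-3p (0.287). With 4 points a profile has few ways to differ, so these are descriptions only.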

How the data were processed

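Small RNA reads of HCT116 spheroid cells were deposited by the authors as whole-number counts per mature miRNA, 1 column per combined identity. Per the labels, 8 sequencing entries carry 4 such identities, 2 per group, so n was 2. The submitters' processing notes name Bowtie 0.12.9, cutadapt 1.10, CASAVA 1.8.2, DESeq2 and the build GRCh38. What each did, which miRNA annotation was used and how multiply mapped reads were treated is not given in the sources used here. Per the labels' protocols, libraries were pooled before size selection. The deposited normalized table was not used here.

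Levels are counts per 1000000 reads of a column. The test was edgeR 4.0.16 (R 4.3.3; estimateDisp, glmQLFit, glmQLFTest) with TMM scaling after filterByExpr (minimum count 10, minimum total 15, here 3.63 CPM in 2 samples), with Benjamini-Hochberg adjustment over 570 miRNAs and a threshold of 0.05. Standard errors were taken as the size of the log2 fold change over the root of the F statistic. DESeq2 1.42.0 and limma 3.58.1 (voom) were alternatives. TMM-scaled log2 CPM for profiles used a prior count of 2. All 10 members were named, and some miRNAs of each list. Members and lists were chosen with earlier results of these data known.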

Additional observations from a re-analysis of the deposited data

How the results depend on the processing

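The count of called miRNAs was unstable. edgeR called 0 of 570 with TMM, RLE or upper quartile scaling, and 0 of 419 with the 10 CPM filter. It called 48 of 570 with total count scaling and 77 of 1510 with no filter. DESeq2 called 75 and limma-voom 4, and with 1 sample left out edgeR called 26 to 55. Of the marker miRNAs, 2 were called with total count scaling, with no filter and with DESeq2 (miR-122-5p and miR-451a each time). The replicate block, which pairs samples by number, raised the calls to 228 in all and 5 among the markers (miR-122-5p, miR-451a, miR-126-5p, miR-486-5p and miR-486-3p). The labels do not say that a number marks a shared culture, and deviations of same-numbered samples correlated at 0.375 across the 570 miRNAs. The cause of these changes was not tested. Of 105 fold changes of tested markers under alternatives, 85 kept direction and side of the threshold, 17 newly passed and 3 reversed. All 3 were arms of miR-142 with 1 sample left out. miR-142-5p ran from -0.55 (without positive sample 2) to 1.31. miR-142-3p ran from -0.63 to 0.11, positive without negative sample 2 (0.04) and without positive sample 1. Per-sample levels left their counting interval in 16 of 40 cases with TMM scaling, which multiplies negative sample 1 by 1.51, and in 16 of 40 with the most abundant miRNA left out. With 1 sample left out, the lone sample of a group is assumed to vary like the other group. Depth limits the positive group most, above all positive sample 2.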
